A study of Mus musculus with 8 samples.

Results

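Methylation of CpG islands was followed over 12 h in *Smchd1* wt mouse embryonic stem cells (mESCs) on their way to neuromesodermal progenitors (NMPs), by comparing day 2.5 of differentiation with day 2 within each of 2 cell lines. Members were chosen by their labels and position alone. They were the 4 *Smchd1* wt libraries of the 8 in the series, and the 7454 autosomal CpG islands, of 13840 islands listed, that had a value in all 8 libraries. No island differed between the days by a test over all islands, and the mean level over islands was 1.44% at day 2 in both lines and 1.41% and 1.40% at day 2.5. Single islands differed by as much as 45.0 percentage points between the days in a line, and differences of this kind were as frequent between the lines on the same day as between the days.

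The cells were primary lines from male F1 embryos of a C57BL/6 dam and a Castaneus sire. Genotypes in the labels are Smchd1[fl/+] for wild-type, in which the floxed allele was intact, and Smchd1[del/+] for maternally deleted (*Smchd1* matΔ), in which a Zp3-Cre transgene active in the growing oocyte had removed *Smchd1*, so that the embryos started without maternal SMCHD1 and the cells carried 1 deleted allele. *Smchd1* matΔ cells are used here for comparison only. All 4 lines had been grown in 2i medium with LIF, passed through mixtures with rising shares of serum medium with LIF, and were moved at day 0 to N2B27 medium with basic FGF. CHIR99021, a Wnt agonist that is also part of the 2i medium, was absent from the N2B27 medium up to day 2 and was then added, so day 2.5 cells had been back in it for 12 h. Each group was 2 lines from separate blastocysts, with 1 library per line and day. *Smchd1* encodes a chromatin protein, and the study used these libraries to ask whether its maternal supply acts on *Hox* genes through DNA methylation.

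A methyl group on the cytosine of a CpG is placed by the enzymes DNMT3A and DNMT3B and copied at replication by DNMT1, and TET enzymes oxidise it. CpG islands are stretches in which CpGs are dense. They cover the starts of most genes and are largely free of methylation in nearly all cell types, with the islands of germline genes, imprinted control regions and the inactive X chromosome as well-known exceptions. Cells kept in 2i medium have a lowly methylated genome, and methylation returns to much of it after that medium is withdrawn, mostly outside islands. NMPs are bipotent cells of the caudal epiblast that give rise to spinal cord and to paraxial mesoderm, and Wnt and FGF signals together induce them in culture.

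Reduced representation bisulfite sequencing (RRBS) cuts DNA at CCGG, the site of MspI, and reads the ends of short fragments after bisulfite has converted unmethylated cytosines. A CpG is therefore read only where CCGG sites lie near it, and each of the 7454 islands held at least 1 such site. Windows of 200 bases are shown for 5 islands on which the results turn, with CCGG in capitals, as read from the GRCm38 reference. They are the island with the smallest p value (*Isl2*), the next (*Pax7*), the island with the smallest p over 4 lines (*Lrfn1*), and the islands that were lowest (*Gm45437* and *Rasip1*) and highest (*Tnfrsf13b*) at day 2.5 relative to day 2. Each window is the stretch of the island outside annotated untranslated regions that held most CCGG sites and, among equals, most CpGs.

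Lrfn1, chr7:28458860-28459059, plus strand: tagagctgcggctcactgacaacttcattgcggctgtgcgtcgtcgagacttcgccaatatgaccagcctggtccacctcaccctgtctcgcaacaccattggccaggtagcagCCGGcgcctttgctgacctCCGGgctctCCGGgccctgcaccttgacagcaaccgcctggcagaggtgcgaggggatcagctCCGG
Isl2, chr9:55546242-55546441, plus strand: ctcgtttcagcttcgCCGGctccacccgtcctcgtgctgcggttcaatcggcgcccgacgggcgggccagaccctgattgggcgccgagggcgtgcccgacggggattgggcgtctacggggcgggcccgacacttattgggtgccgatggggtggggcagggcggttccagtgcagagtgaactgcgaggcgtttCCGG
Pax7, chr4:139828364-139828563, plus strand: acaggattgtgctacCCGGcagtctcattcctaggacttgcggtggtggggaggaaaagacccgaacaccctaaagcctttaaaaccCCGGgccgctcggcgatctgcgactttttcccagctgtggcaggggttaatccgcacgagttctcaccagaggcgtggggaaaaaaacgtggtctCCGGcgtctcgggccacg
Gm45437 and Rasip1, chr7:45632395-45632594, plus strand: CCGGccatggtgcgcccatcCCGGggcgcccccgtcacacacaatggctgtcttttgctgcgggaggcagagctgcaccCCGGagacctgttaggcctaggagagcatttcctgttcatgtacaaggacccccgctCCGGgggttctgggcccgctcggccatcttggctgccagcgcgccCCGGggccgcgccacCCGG
Tnfrsf13b, chr11:61147435-61147634, plus strand: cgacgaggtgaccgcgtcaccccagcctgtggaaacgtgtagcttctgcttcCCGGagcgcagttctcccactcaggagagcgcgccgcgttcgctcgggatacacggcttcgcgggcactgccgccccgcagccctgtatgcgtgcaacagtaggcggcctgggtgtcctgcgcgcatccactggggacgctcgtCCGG

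The *Gm45437* and *Rasip1* window held 6 CCGG sites and 17 CpGs, and the *Lrfn1* window 4 sites and 14 CpGs. The *Pax7* window held 3 sites and 16 CpGs. *Isl2* and *Tnfrsf13b* each held 2 sites and 25 CpGs in their windows. Since both counts were used to pick the windows, they do not show how CpGs and sites go together in these islands.

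The deposited values were percent methylation per island, with no read counts, so the number of reads behind a level is unknown, apart from a minimum that the methods give. A level over a culture cannot tell islands partly methylated in every cell from islands fully methylated in some cells. RRBS gives no expression, and transcripts that mark the stage of the cells were not analysed here. The *Smchd1* island itself was at 0% and 2.63% at day 2, then 0.327% and 0% at day 2.5, which does not report on the deletion. In each of the 4 libraries most values were near 0. The median island was at 0.277% and 0.334% at day 2, then 0.346% and 0.307% at day 2.5. Between 31.5% and 40.9% of islands were at exactly 0, the lowest and the highest share being those of line 1 at day 2.5 and at day 2. Between 163 and 174 islands reached 10%, and 39 or 40 reached 50%.

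The methylated islands lay elsewhere than the unmethylated ones. A transcript start lay inside 6734 of the 7454 islands (90.3%), but inside only 47 of the 166 islands with a mean of at least 10% over the 8 libraries (28.3%) and 5 of the 38 with a mean over 50% (13.2%). Exons away from a start held 445 islands in all (5.97%) and 76 of the 166 methylated ones (45.8%). Intergenic islands made up 16 of the 38 most methylated. Mean levels over islands at starts were 0.787% and 0.822% at day 2 and 0.777% and 0.766% at day 2.5. Intergenic islands averaged 10.3% in both lines at day 2, and 10% and 10.5% at day 2.5. The most methylated islands were shared by the days: 31 islands were over 50% in each of the 4 libraries, and 6 were at 90% or above in each.

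Exchange across these limits was small and went both ways. From day 2 to day 2.5, 7 islands went from under to over 10% in both lines and 7 went the other way, and 1 island crossed 50% in each direction. For comparison, 4 islands were under 10% in line 1 and over it in line 2 at both days, and 4 were the reverse. Among islands without any methylation call, 683 were at 0 in all 4 libraries. A further 262 were at 0 in both lines at day 2 and above 0 in both at day 2.5, and 194 were the reverse. When lines were compared in place of days, 197 islands were at 0 in both libraries of line 1 and above 0 in both of line 2, and 265 were the reverse. The 262 islands above 0 in both lines at day 2.5 alone had a median of 0.766% there as means of the lines, and the highest value in a single library was 18.2%, at *Kcna2* in line 2.

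The mean over all 7454 islands differed by −0.021 percentage points in line 1 and by −0.0312 in line 2 (mean −0.0261 ± 0.00717, SD, n = 2 lines). Both lines were lower at day 2.5, but the exact paired permutation test (two-sided) gave p = 0.5, which is the smallest value that 2 lines allow. Islands under 10% (7288 islands) averaged 0.702% and 0.732% at day 2 and 0.701% and 0.678% at day 2.5, a difference of −0.027 ± 0.0372 (exact p = 0.5). Islands of 10 to 50% (128 islands) averaged 21.3% and 19.4% at day 2 and 20.2% and 20.7% at day 2.5. Here the lines went in opposite directions, −1.04 in line 1 and 1.35 in line 2 (exact p = 1). The 38 islands over 50% averaged 75.4% and 76.1% at day 2 and 74.9% and 75.6% at day 2.5, a difference of −0.483 in line 1 and −0.448 in line 2 (exact p = 0.5). None of these 4 differences kept its sign when the median level of each library took the place of its mean, with 0.0209 for all islands, 0.0187 under 10%, −1.11 for 10 to 50% and 1.32 over 50%. The median of the differences of single islands, paired by line, was 0 for all islands and under 10%. It was 0.0655 for 10 to 50% and −1.17 over 50%, of the same sign as the means. With libraries scaled to the same mean, the difference over all islands was −0.000758 and that over 50% was 0.903. By chromosome, mean differences ran from −0.2 (chromosome 12) to 0.103 (chromosome 3). Both lines were lower at day 2.5 on 7 autosomes, higher on 2, and of opposite sign on 10.

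**Figure D1:**
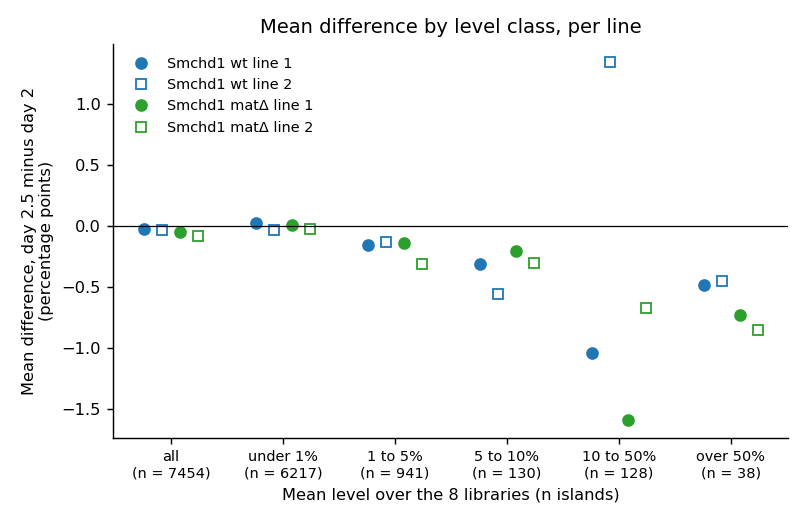
Mean difference in island methylation between day 2.5 and day 2 (vertical axis, percentage points) for all autosomal islands and 5 classes of mean level over the 8 libraries (horizontal axis), with 1 point per line, blue for *Smchd1* wt and green for *Smchd1* matΔ. All 4 points lie close to 0 for all islands, and the *Smchd1* wt points part most in the class of 10 to 50%, at −1.04 and 1.35.

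Differences between the days and between the lines were then compared for single islands. Between the days, the SD of the difference over islands was 1.78 percentage points in line 1 and 2.04 in line 2. Between the lines, it was 1.96 at day 2 and 1.74 at day 2.5. Differences of at least 5 points were found for 181 and 189 islands between the days and for 199 and 177 islands between the lines. At 10 points the numbers were 51 and 64 between the days, and 59 and 50 between the lines. With both line and day different, the SD was 1.93 for line 2 at day 2.5 against line 1 at day 2. For line 1 at day 2.5 against line 2 at day 2 it was 1.71. At 5 points, 196 and 171 islands differed in these comparisons. The line difference at day 2 and that at day 2.5 correlated with r = −0.0628 (sex chromosomes included), so line differences hardly recurred. Levels in paired libraries correlated across islands (n = 7454) with Pearson r = 0.96 and 0.949 between the days, and 0.952 and 0.962 between the lines. Each island is read from its own fragments in both libraries, and these correlations are a description with no test.

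**Figure D2:**
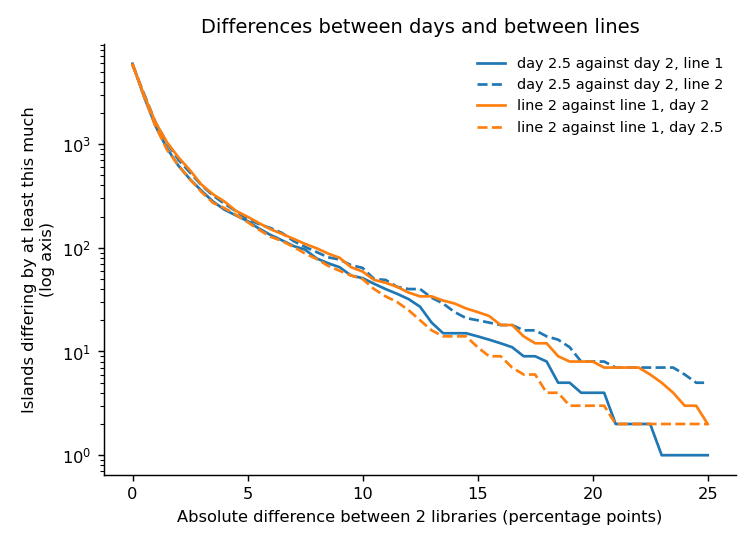
Number of islands (vertical axis, log scale) whose methylation differed between 2 *Smchd1* wt libraries by at least the amount on the horizontal axis (percentage points), in blue for day 2.5 against day 2 in each line and in orange for line 2 against line 1 on each day. The blue and orange lines run together, with 181 and 189 islands at 5 points between the days and 199 and 177 between the lines.

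The day differences of the lines went together hardly at all. Across the 7454 islands, the day difference in line 1 and that in line 2 had a Pearson r of −0.0352 and a Spearman rho of −0.0149. Over the 166 islands with a mean of at least 10%, r was −0.00683. In line 1, 77 islands were at least 5 points higher at day 2.5, and their median difference in line 2 was 0, with 30 islands higher and 35 lower. In line 1, 104 islands were at least 5 points lower, again with a median of 0 in line 2. The 99 and 90 islands picked in line 2 had a median of 0 in line 1 as well. Islands that were high in the chosen line at day 2.5 had started low there: the medians of the 77 islands were 4.06% in line 1 and 8.81% in line 2 at day 2, and 12.5% and 7.14% at day 2.5.

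Counted over both lines, 145 islands were at least 1 point higher at day 2.5 in each line (1.95% of all islands) and 169 were at least 1 point lower in each (2.27%), while 344 moved by at least 1 point in opposite directions (4.61%). With 5 points, 19 islands were higher in both (0.255%), 16 lower in both (0.215%) and 41 of opposite direction (0.55%). Islands of the same direction in both lines thus numbered 314 against 344 of opposite direction at 1 point, and 35 against 41 at 5 points.

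**Figure D3:**
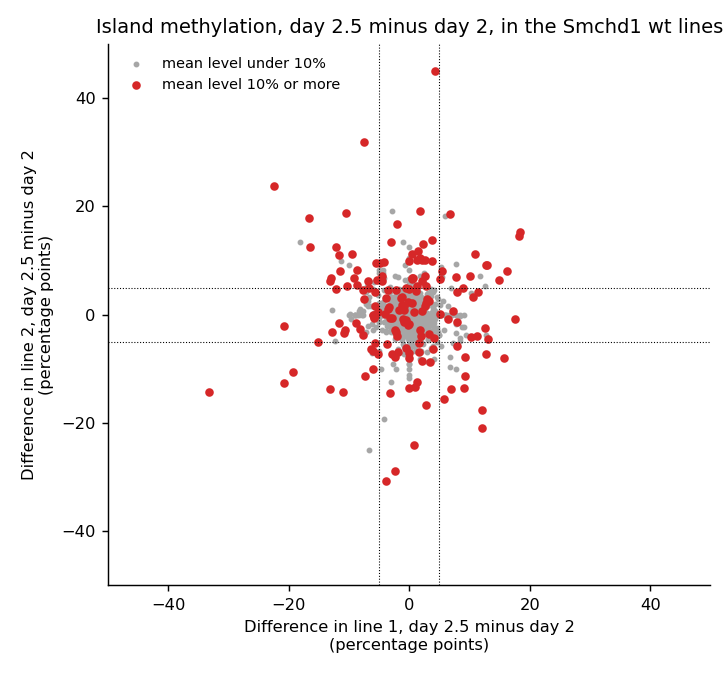
Difference between day 2.5 and day 2 in *Smchd1* wt line 2 (vertical axis, percentage points) against that in line 1 (horizontal axis), with 1 point per autosomal island, in red for islands with a mean of at least 10% over the 8 libraries, and dotted lines at 5 points. The cloud is round, with 19 islands beyond both lines at the upper right, 16 at the lower left and 41 in the other corners.

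In limma with the cell line as a block, 0 of 7196 islands passed an adjusted p of 0.05 between the days in *Smchd1* wt (0% of islands tested, smallest adjusted p = 1). An unadjusted p under 0.05 was reached by 227 islands (3.15% of those tested). The median standard error of a day difference was 0.383 points for islands under 1%, 0.929 for 1 to 5%, 2.35 for 5 to 10%, 8.13 for 10 to 50% and 2.84 above 50%, so precision was lowest at islands of intermediate level. Fitting *Smchd1* matΔ cells together with *Smchd1* wt, as a mean over the 4 lines, also gave 0 calls (0%, smallest adjusted p = 0.841, 262 islands at an unadjusted p under 0.05 in limma).

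The 5 islands with the smallest p are therefore given as values. All had an adjusted p of 1 in limma. *Isl2* encodes a LIM homeodomain factor of motor neurons, and its island over a coding exon (chr9:55545461-55546720) was at 5% and 6.67% at day 2, then 0% in both lines at day 2.5. The difference was −5.83 points (SE 0.758, 95% confidence interval −7.86 to −3.80, unadjusted p = 0.00101 in limma). *Smchd1* matΔ lines went from 3.92% and 0% to 6.67% and 1.67% at the same island. The island at the start of *Isl2* was at 0% in both *Smchd1* wt lines at day 2, then 0% and 1.04% at day 2.5.

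*Pax7*, a paired-box gene of the dorsal neural tube and of muscle stem cells, had a low island over a coding exon (chr4:139828039-139828698) that was at 4.17% and 3.33% at day 2, then 9.52% and 10.3% at day 2.5. The difference was 6.14 points (SE 0.845, 95% confidence interval 3.88 to 8.40). In *Smchd1* matΔ cells the island stood at 0% and 3.33%, then 0% and 2.78%. Another *Pax7* island, at a start of the gene, was at 1.1% and 0.714%, then 0% and 1.3%, in *Smchd1* wt, with the lines of opposite sign.

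*Cmpk2*, which encodes a mitochondrial nucleotide kinase, was lower at day 2.5 over its start (chr12:26469172-26469850), with 8.33% and 6.67% followed by 2.38% and 0%. *Slc4a1ap* (chr5:31526955-31527650) went from 3.33% and 0% to 7.84% and 3.33%, so that line 2 at day 2.5 only met line 1 at day 2. *Lrfn1* was the 5th island, and its values come below with the largest differences.

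The largest differences that had the same sign in both lines were found mainly at islands of intermediate level. By the naming rule, the 10 islands furthest up and the 10 furthest down are given, and since they were picked for these values, the standard errors, intervals and p values printed for some of them describe the fit and are no test of the choice. Of the 10 that were higher at day 2.5, 9 had a mean of at least 10%, 3 had a transcript start inside, and the median island was 509 bases long with 8.5 CCGG sites. Among the 10 that were lower, 8 reached that mean, 6 held a start, and the medians were 542 bases and 7.5 sites.

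At the top, the *Tnfrsf13b* island (chr11:61147234-61147649) lies over a coding exon of the gene for TACI, a receptor of B cells. It stood at 35.7% and 30.0% at day 2, then 40.0% and 75.0% at day 2.5. Its mean difference of 24.6 points came almost entirely from line 2, with 45.0 points against 4.29 in line 1. *Smchd1* matΔ lines were lower at day 2.5 at this island, 58.8% and 35.7% after 75.0% and 41.4%.

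*Daxx* encodes a chaperone of the histone variant H3.3. Its exonic island (chr17:33911574-33912013) was at 41.2% and 53.0% at day 2, then 59.5% and 68.3% at day 2.5, and both lines moved by a like amount (18.3 and 15.2 points). The *Smchd1* matΔ lines split at this island, −13.8 points in line 1 and 23.2 in line 2.

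*Rasgef1a*, a guanine nucleotide exchange factor of the Ras family, had an island over its start (chr6:118011302-118011798) at 0% and 5.56% at day 2, then 18.2% and 20% at day 2.5. The mean difference was 16.3 points (SE 3.26), and *Smchd1* matΔ lines were at 16.7% and 6.90%, then at 7.14% in both. *Kcna2*, a voltage-gated potassium channel gene, was at 0% in both lines at day 2, then 5.88% and 18.2% at day 2.5 over its start (chr3:107101480-107102556). In a coding exon of *Slc6a5*, the gene of a neuronal glycine transporter, values went from 0% and 9.09% to 14.8% and 15.6% (chr7:49911831-49912323). These 3 islands were the ones among the 10 that started under 10% in both lines.

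*Lrfn1* encodes a synaptic adhesion protein with leucine-rich repeats, and its coding island (chr7:28458766-28459719) was the most methylated of the 10. It was at 79.2% and 70.8% at day 2, then 92.0% and 80.0% at day 2.5, which is 12.8 and 9.14 points higher (mean 11.0, SE 1.66, 95% confidence interval 6.54 to 15.4). Line 2 at day 2.5 only just exceeded line 1 at day 2, since the lines themselves differed by a similar amount.

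*Irgc1*, of the immunity-related GTPase family, was at 43.2% and 46.4%, then at 55.9% and 55.6%, in an exon (chr7:24432198-24433295). *Abhd17a*, a gene for an enzyme that removes palmitate from proteins, was at 27.3% and 38.9% at day 2, then 38.2% and 50% at day 2.5 (chr10:80586523-80586986). An island in an intron of *Erbb4*, the neuregulin receptor gene, near the start of *Gm19335* (chr1:68589113-68589633), went from 38.5% and 35.7% to 54.7% and 43.8%. The intergenic island near the pseudogene *Gm2077* (chr3:3935026-3935646) went from 51.9% and 27.3% to 58.5% and 45.8%, with the lines further apart at day 2 than the days were in either line.

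Among islands that were lower at day 2.5, the one shared by *Gm45437* and *Rasip1* was first (chr7:45632260-45632776). *Rasip1* encodes a Ras-interacting protein of endothelial cells, and *Gm45437* is an antisense transcript. The island was at 40.9% and 17.9% at day 2, then 7.69% and 3.57% at day 2.5, a difference of −33.2 points in line 1 and −14.3 in line 2. In *Smchd1* matΔ cells line 1 went from 40.0% to 6.25% while line 2 went from 10% to 21.4%.

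*Psma6*, which encodes an alpha subunit of the proteasome, was at 28.9% and 45.8% and then at 25% and 15.2% over its start (chr12:55398658-55399188), with most of the difference in line 2. *G2e3*, a ubiquitin ligase gene, likewise had little difference in line 1 (37.5% and 35.2%) and much in line 2 (38.0% and 9.21%) over its start (chr12:51347992-51348511). *Cux2*, a homeobox gene of cortical neurons, had the reverse in an intron (chr5:121948371-121948923), with 23.5% and 2.78% in line 1 and 10.3% and 8.12% in line 2. At these 3 islands the mean difference rests mostly on 1 line.

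*Gm27901* named an intergenic island (chr7:143445161-143446003) at 40.0% and 31.8% at day 2, then 19.2% in both lines at day 2.5. The island in a coding exon of *Chst8*, a sulfotransferase gene, near the start of *Gm12756* (chr7:34675221-34676208), was at 28.2% and 28.6% at day 2, then 8.89% and 17.9% at day 2.5. The start of the mitotic kinase gene *Plk1* (chr7:122159329-122159792) was at 27.8% and 35.9%, then at 14.6% and 22.3%. Both lines were lower at day 2.5 at these 3 islands, which the choice required.

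The start of *Hsd17b7*, an enzyme of cholesterol synthesis, was at 18.5% and 18.4% at day 2, then 7.46% and 4.08% at day 2.5 (chr1:169968946-169969431), with a difference of −12.7 points (SE 3.29). *Lhx3*, a LIM homeodomain gene of the pituitary and motor neurons, was at 6.67% and 25% at day 2, then 0% in both lines at day 2.5 over its start (chr2:26206331-26206900). *Scnn1b*, a subunit of the epithelial sodium channel, was at 8.18% and 21.3%, then at 4% and 2.00% over its start (chr7:121864994-121865548).

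**Figure D4:**
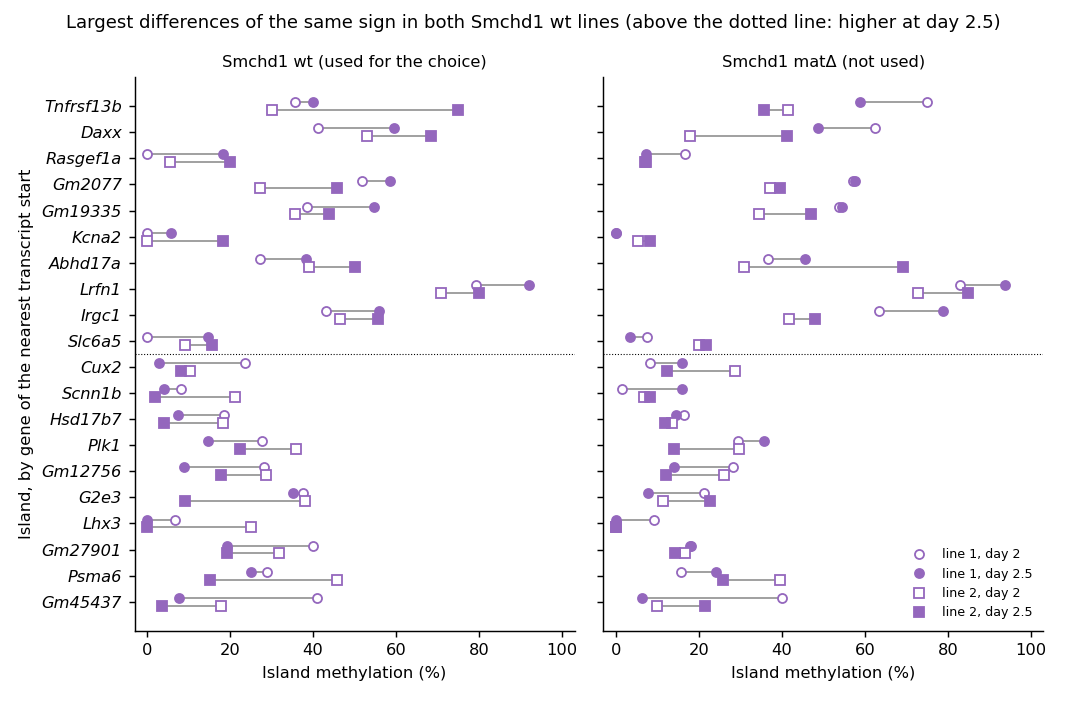
Methylation (horizontal axis, percent) of the 10 islands furthest up and the 10 furthest down with the same sign in both *Smchd1* wt lines (vertical axis, by gene of the nearest transcript start), with open symbols for day 2 and filled ones for day 2.5, circles for line 1 and squares for line 2. The left panel holds the values used for the choice, and the right panel the *Smchd1* matΔ lines that were not used. There 7 of the 10 upper islands and 9 of the 10 lower ones had the same sign of the mean difference. Only 5 of the upper and 2 of the lower islands had that sign in both *Smchd1* matΔ lines. Shares of each sign over islands of like level were not counted.

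The *Smchd1* matΔ lines had no part in the choice of these islands, so they give the same measurement again under the other genotype. For the 10 higher islands the median *Smchd1* matΔ difference was 3.13 points, against 12.1 in *Smchd1* wt, with 7 of the 10 higher and 5 higher in both lines. For the 10 lower islands the median was −3.38 points, against −15.3, with 9 of the 10 lower and 2 lower in both lines. Most of these islands had a level of 10 to 50%. All islands of that class together were lower at day 2.5 in both *Smchd1* matΔ lines, by −1.59 and −0.675 points. Shares of each sign over islands of like level were not counted, so the counts of signs are a description. Over the wider sets, 9 of the 19 islands that were at least 5 points higher in both *Smchd1* wt lines were also higher in *Smchd1* matΔ, and 10 of the 16 lower ones were lower. Over all islands, the correlation of the day differences ranged from r = 0.0177 to 0.128 between a *Smchd1* wt and a *Smchd1* matΔ line, and from −0.0652 to −0.0352 between lines of 1 genotype.

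Each of the 4 lines had differences of at least 5 points of the same sign at 5 islands, 3 higher (0.0402% of all islands) and 2 lower (0.0268%). *Lrfn1*, *Irgc1* and *Abhd17a* were the higher ones, and the *Chst8* exon was a lower one. The other was the start of *Rpn1*, a subunit of the oligosaccharyltransferase, which lies outside the naming rule and was chosen after its values were seen (chr6:88084339-88085119). *Rpn1* was at 15.5% and 13.8% at day 2, then 8.11% and 2.50% at day 2.5 in *Smchd1* wt, and at 22.1% and 14.1%, then 7.69% and 0%, in *Smchd1* matΔ. Its mean difference over 4 lines was −11.8 points (SE 1.68, unadjusted p = 0.0015 and adjusted p = 0.841 in limma). *Lrfn1* was at 82.8% and 72.7% in *Smchd1* matΔ at day 2, then 93.8% and 84.9% at day 2.5, and all 4 lines were higher by 9.14 to 12.8 points. Its mean over the lines, which include the 2 by which it was chosen, was 11.3 points (SE 1.17, 95% confidence interval 8.14 to 14.4, unadjusted p = 0.000398 and adjusted p = 0.841 in limma). The *Chst8* exon was at 28.1% and 26.1%, then at 13.9% and 12.1%, in *Smchd1* matΔ, so that at day 2 the 4 lines lay within 26.1% to 28.6% and at day 2.5 within 8.89% to 17.9%.

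A day difference that depended on genotype was looked for with the interaction term, and 0 of 7196 islands passed (0%, smallest adjusted p = 0.873, 250 islands at an unadjusted p under 0.05 in limma). Over all islands, the mean difference was −0.0459 and −0.0774 points in the *Smchd1* matΔ lines, and *Smchd1* wt minus *Smchd1* matΔ was 0.0356 points, at which an exact permutation test (two-sided) gave the smallest p that 2 lines against 2 allow. Line 1 of *Smchd1* matΔ was the most methylated line, with means of 1.59% and 1.55%. Without it, the difference between genotypes was 0.0513, and with libraries scaled to the same mean it was 0.00255 (exact permutation p = 1).

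Some islands went strongly in opposite directions in the 2 *Smchd1* wt lines. *Snrnp70*, the gene of a U1 small nuclear ribonucleoprotein, had an exonic island (chr7:45376719-45377276) at 86.0% in line 1 and 60.7% in line 2 at day 2, and at 63.5% and 84.4% at day 2.5. *Tpst2*, a tyrosylprotein sulfotransferase gene, went from 66.7% and 50% to 50% and 67.9% (chr5:112307592-112308235). *Nlk*, a kinase gene that acts on Wnt signalling, went from 18.2% and 0% to 0% and 13.3% over its start (chr11:78697067-78697572). The mean over the lines was nearly the same on both days at the first 2 of these islands, 73.4% and 74.0% at *Snrnp70* and 58.3% and 58.9% at *Tpst2*.

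The islands of the highest level hardly differed. An island at *Gm42959* (chr6:3190228-3190746) was at 96.0% and 95.2% and then at 95.8% and 93.5%. An intergenic island nearest to the start of *Olfr459* (chr6:41807208-41807852) was at 93.8% and 98.3%, then at 95.6% and 95.5%. In an intron of *Nrg1*, the neuregulin gene, values were 95% and 94.2% at day 2 and 92.6% and 91.4% at day 2.5 (chr8:32853310-32853750), a difference of −2.56 points (SE 0.422, unadjusted p = 0.00269 and adjusted p = 1 in limma).

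Differences of at least 5 points in either *Smchd1* wt line were found at 294 of all islands (3.94%). As a level that has no part in these differences, the mean of the 4 *Smchd1* matΔ libraries was used here to class islands. The share was then 0.671% of the 6111 islands under 1%, 7.64% of the 1034 islands of 1 to 5%, 34.1% of the 135 islands of 5 to 10%, 74.6% of the 134 islands of 10 to 50% and 70% of the 40 islands over 50%. Such differences were found at 2.27% of islands with a transcript start inside and at 22.0% of islands over an exon without one. Of the islands with 1 to 9 CCGG sites, 6.62% differed this much, against 1.55% of those with 15 to 107. By the ratio of observed to expected CpGs in the deposited island names, the share was 6.89% for 0.6 to 0.82, and 2.17% for 0.91 to 1.41. This ratio lay within 0.02 of that computed from the GRCm38 sequence for only 1298 of 7461 islands, sex chromosomes included. The largest gap was 0.4619, so these shares hold for the deposited ratio only. Islands with few sites were also more methylated, 2.14% on average in line 1 at day 2 against 0.843%, so these shares do not separate level from the number of sites, and the part of either was not tested.

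Gene lists of the stages and pathways in this differentiation were then read in turn, an island belonging to a gene when a transcript of it started within 2 kb. None of the lists held an island that passed the test over all islands (0%), and the counts below are of islands at least 1 point higher or lower in both lines. Over all islands these shares were 1.95% and 2.27%, but they rose with level. They were 0.772% and 0.676% for islands under 1%, and 5.42% and 8.5% for 1 to 5%. For 5 to 10% they were 8.46% and 13.1%, for 10 to 50% they were 21.9% and 18%, and over 50% 18.4% each. A list's count has to be read against the level of its islands. The median difference over all islands was 0. Many listed genes had no island with a value. Those with a value were 11 of 61 germline genes and 20 of 50 imprinted genes. For NMP and primitive streak they were 19 of 33 genes, and for endoderm 7 of 14.

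Genes of the naive state are shut down as cells leave 2i medium. Of 24 genes listed, 10 had an island with a value, 11 islands in all, and these averaged 0.508% and 0.796% at day 2 and 0.737% and 1.36% at day 2.5. The mean was higher in both lines, by 0.228 and 0.561 points, with no island 1 point higher in both. The median of the mean differences was 0.387, but the medians of the lines were 0.377 in line 1 and 0 in line 2. *Esrrb*, an orphan nuclear receptor that holds the naive network, had the highest level, 3.15% and 2.02%, then 2.08% and 5.15%. *Klf4*, a Krüppel-like factor used in reprogramming, was at 0% and 0.275%, then 0.381% and 0.275%. *Klf2*, another of that family, was at 0.550% and 1.03%, then 0.928% and 0.987%. *Sox2*, which is kept on in NMPs, was at 0% and 1.19%, then 0.2% and 0.286%. No island of the list exceeded 5.15% in a *Smchd1* wt library.

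Primed epiblast genes, which come on after the naive ones, averaged 1.14% and 0.455% at day 2 and 0.395% and 0.694% at day 2.5 over 12 islands, with the lines of opposite sign. *Dnmt3b*, the de novo methyltransferase that marks this stage, was at 0.470% and 0.158%, then 0.122% and 0.217%. *Otx2*, a homeodomain factor of the epiblast and forebrain, was at 5.13% and 0%, then 2.08% and 3.33%. *Pou3f1*, a POU factor of the primed epiblast, was at 0.599% and 1.16%, then 0.430% and 0.358%, the largest difference of the list with the same sign in both lines.

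NMP and primitive streak genes (20 islands) went from 1.46% and 2.78% to 2.00% and 1.5%, again with opposite signs in the lines, and 1 island was at least 1 point lower in both (5%). This was the island at *Evx1*, a homeobox gene of the posterior streak, at 2.68% and 3.12% at day 2, then 0% in both lines at day 2.5. *Hes3*, a repressor of the Hes family, was the only member with a mean of at least 10%, at 15.6% and 21.2%, then 15% in both lines, in an exonic island (chr4:152286225-152287219). *Eomes*, a T-box factor of the streak, was at 0% and 0.312%, then 0.446% and 0%. *Wnt3a*, the ligand of the tail bud, was at 0.376% and 1.35%, then 0.649% and 0%. *Cdx1*, a caudal homeobox gene that Wnt signals induce, went from 0% and 8.57% to 4.29% and 6%, within the range of line 2 and line 1 at day 2.

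Targets and feedback genes of the Wnt pathway, the signal added at day 2, had 23 islands with means of 0.623% and 0.588% at day 2 and 0.811% and 0.531% at day 2.5. *Axin2*, the negative feedback gene of the pathway, was at 0.130% and 0.121%, then 0.0791% and 0.177%. *Ctnnb1*, which encodes beta-catenin, was at 1.11% and 0.861%, then 0.642% and 0.879%. *Lef1*, a transcription factor partner of beta-catenin, was at 0.208% and 0.305%, then 0.559% and 0.715%. *Sp5*, a direct target, was at 0% in 3 libraries and at 5.88% in line 1 at day 2.5. *Sfrp1*, a secreted inhibitor, was the island at least 1 point higher in both lines (1.48% and 1.23%, then 3.24% and 2.56%), 4.35% of the list.

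*Hox* genes specify position along the body axis and begin to be expressed in NMPs. Their 22 islands averaged 1.20% and 1.67% at day 2 and 1.26% and 1.02% at day 2.5, with 0.0661 points in line 1 and −0.642 in line 2. No *Hox* island exceeded 5.56% in a *Smchd1* wt library. *Hoxa10* had the largest difference of the same sign, 2.98% and 5.15%, then 2.22% and 1.30%, over its start (chr6:52240324-52240829). *Hoxc11* was at 1.00% and 2.29%, then at 0% in both, which is 4.55% of the list at least 1 point lower in both lines. *Hoxa9* was the most methylated, at 5.56% and 5.36%, then 2.70% and 5.21%. *Hoxb4* was at 1.67% and 0.658%, then 2.47% and 1.25%.

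Islands of the genes that place, remove or read methylation were near 0 throughout, 0.743% and 0.652% at day 2 and 0.347% and 0.426% at day 2.5 over 19 islands. *Dnmt1*, the maintenance enzyme, was at 0% in all 4 libraries. *Tet1*, a dioxygenase of the naive state, was at 0.813% in line 2 at day 2, then 0% in the other 3. *Kdm2b*, which binds unmethylated CpGs, was at 1.73% and 1.09%, then 0.976% and 0.714%, and *Uhrf2*, a relative of the DNMT1 cofactor UHRF1, was highest at 7.35% and 1.67%, then 2.63% and 2.45%. Polycomb genes, 35 islands, stood at 0.540% and 0.408%, then 0.418% and 0.548%. *Ezh1*, a catalytic subunit, was at 1.59% and 1.03%, then 0.617% and 0.272%, and its relative *Ezh2* was at 0.267% and 0.346%, then 0.346% and 0.245%.

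Many germline genes are silenced by island methylation in somatic cells. Their 11 islands had the highest mean of the lists, at 13.9% and 11.8% at day 2 and 12.1% in both lines at day 2.5. Of 61 germline genes listed, only 11 had an island with a value. Only 3 of the 11 islands had a mean of at least 10% over the 8 libraries, and most of the 11 were near 0. The median level was 1.76%, below the 11.7% of the protocadherin islands. *Sycp1*, a component of the synaptonemal complex, was at 77.9% and 81.0% at day 2, then 75.0% and 73.6% at day 2.5. *Meioc*, a regulator of meiotic entry, was at 36.7% and 23.5%, then 23.8% and 20.4% (chr11:102665169-102666458). *Zcwpw1*, a meiotic histone reader, was at 21.9% and 12.9%, then 18.9% and 26.4%. *Dazl*, an RNA-binding protein of germ cells, was at 3.92% and 2.22%, then 1.75% and 1.39%. Those 4 were not all of 1 sign, and the list's mean was lower in line 1 (−1.74 points) and higher in line 2, with 2 of 11 islands at least 1 point lower in both lines (18.2%) and 0 higher. These 2 were *Meioc* and *Sycp1*, in level classes where 18% and 18.4% of all islands were this much lower.

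**Figure D5:**
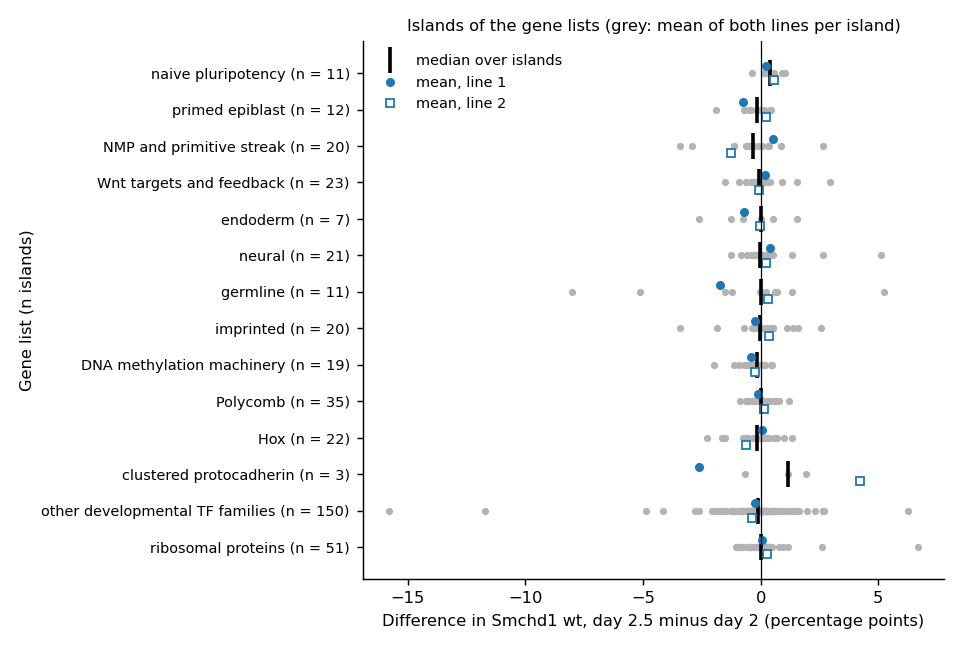
Difference between day 2.5 and day 2 in *Smchd1* wt (horizontal axis, percentage points) for the islands of 14 gene lists (vertical axis), with a grey point per island as the mean of both lines, a black bar for the median over islands and blue symbols for the mean of each line. Medians lie within 0.4 points of 0 in every list but the 3 protocadherin islands, and blue symbols lie on both sides of 0 in several lists.

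Imprinted genes carry methylation on 1 parental allele at control regions, and the 20 islands near such genes averaged 1.64% and 1.59%, then 1.39% and 1.95%, and an island counted here need not be such a control region. *Kcnq1* was at 6.67% and 4.44%, then 4.76% and 11.5%. *Igf2r*, the receptor that clears IGF2, was at 9.34% and 4.39%, then 4.2% and 5.79%. *Peg13*, a non-coding transcript, was at 2.38% and 5.88%, then 0% and 1.39% (chr15:72809538-72810123), while the *Smchd1* matΔ lines were at 18.2% and 21.9%, then 12.2% and 1.96%.

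Neural genes (21 islands) averaged 1.12% and 1.33%, then 1.5% and 1.57%, with 2 islands at least 1 point higher in both lines (9.52%). These were *Dbx1*, a homeobox gene of spinal interneurons, at 0% in both lines and then at 2.50% and 7.69% (chr7:49636313-49636892), and *Olig1*, a factor of the oligodendrocyte lineage, at 0% in both lines and then at 1.32% and 3.95%. *Sox1*, the early neural marker, was at 0.657% and 0.830%, then 0.740% and 0%. Endoderm genes (7 islands) averaged 1.12% and 0.681%, then 0.406% and 0.675%. *Foxa2*, a pioneer factor of endoderm, was at 5.26% in line 1 at day 2, then 0% in the other 3 libraries, and *Sox7* was at 0% and 1.02%, then 0.840% and 3.30%.

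Families of developmental transcription factors other than *Hox*, taken by patterns of gene names, made up the longest list. Its 150 islands had means of 1.76% and 1.88% at day 2 and 1.5% and 1.51% at day 2.5. The patterns also took in genes that only share a prefix with these families, such as *Tbxas1*, *Simc1* and *Islr2*, and these are part of the values. Both lines were lower, with −0.257 and −0.367 points, but the median was −0.0925, with 5 islands at least 1 point higher in both lines (3.33%) and 4 lower (2.67%). A few islands differed much more than the rest: besides *Lhx3*, the cardiac gene *Nkx2-5* was at 52.6% and 67.3%, then 53.3% and 43.2%. *Lhx6*, a LIM homeodomain gene of interneurons, was at 0% in 3 libraries and at 12.5% in line 2 at day 2.5.

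Housekeeping genes were represented by ribosomal proteins, whose 51 islands averaged 0.547% and 0.428%, then 0.621% and 0.693%. The pseudogene *Rps4l* accounted for the highest level and the largest difference, at 8.61% and 3.33%, then 14% and 11.3% (chr6:148354288-148355538), and *Smchd1* matΔ lines were at 15.1% and 13.8%, then 15.2% and 7.69%. Clustered protocadherin islands, of which 3 had a value, were at 6.48% and 5.30%, then 3.86% and 9.52%.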

How the data were processed

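RRBS was performed by the authors on genomic DNA of 8 libraries (NuGEN Ovation kit, QIAGEN EpiTect bisulfite conversion, 75 bp single-end reads). According to the study's methods, reads were trimmed with TrimGalore and Cutadapt 1.15 and a kit script for diversity bases, mapped to GRCm38.p6 with Bismark 0.20.0, and methylation over CpG islands was computed in SeqMonk, with a minimum number of reads required of each library. What the authors deposited is the percent methylation of each island in each library, with no normalisation between libraries. Depth is unknown, each island weighs the same whatever its depth, and zeros and steps from few reads cannot be told from real levels. The second deposited table, of *Hox* islands, was not used.

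Groups were taken from genotype, day and line in the labels. Islands were annotated with GENCODE on GRCm38, by the transcripts starting inside or within 2 kb and the nearest start. All 7196 islands with any variation, sex chromosomes included, were fitted as percent in limma 3.58.1 (R 4.3.3) with line as a block (2 residual degrees of freedom), a variance trend, two-sided tests and Benjamini-Hochberg adjustment. The fit was also run on shuffled values with known shifts. That outcome is not reported here, so the size of a difference that the fit could miss is not given. The line numbers pair the libraries because both days came from the same line. Across islands, deviations of same-line libraries from their group means correlated with r = −0.0628 in *Smchd1* wt and 0.197 in *Smchd1* matΔ. Means over islands were compared over lines with exact permutation tests (scipy 1.17.1, Python 3.11.15). SD is over lines. Whether a line was cultured more than once is not given in the sources used here, so p-values measure the spread between these samples.

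Islands named are those past an adjusted p of 0.05 (or the 5 of smallest p), the 10 furthest up and the 10 furthest down with the same sign in both *Smchd1* wt lines, the 3 largest of opposite sign, the 3 of highest mean, and 1 per gene list. Further list members were named after their values were seen, for their role. The islands, gene lists and tests were chosen with earlier results of these data known. Alternatives were no replicate block, log2(percent + 1), filters at a mean of 1% or 5%, scaling of libraries to a common mean, robust or untrended moderation, the 4 *Smchd1* wt libraries only, medians, other class limits, thresholds of 2 and 10 points, a 5 kb window, and leaving out each library or line.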

Additional observations from a re-analysis of the deposited data

Results flagged for a closer look

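At 6 of the 41 named islands both *Smchd1* wt lines moved in the direction opposite to both *Smchd1* matΔ lines. Over all 7454 islands this held for 465 (6.24%), while 530 (7.11%) had the same sign in all 4 lines. Most named islands were picked for the same sign in both *Smchd1* wt lines. The shares over all islands also count those unchanged or of opposite sign in these lines, so they are no like base for the 6. With at least 1 point in each line, 16 islands were higher in *Smchd1* wt and lower in *Smchd1* matΔ and 10 were the reverse, against 12 higher and 21 lower in all 4 lines. With 5 points, 0 were opposed, against 3 and 2. None of these passed the interaction test over all islands (limma, adjusted p = 0.873 for each), and several were named for their *Smchd1* wt values. The day difference in *Smchd1* wt minus that in *Smchd1* matΔ was 35.6 percentage points at the *Tnfrsf13b* exon, −19.8 at the *Scnn1b* start, −8.88 at the *Cmpk2* start (unadjusted p = 0.0014 in limma) and −8.04 at the *Isl2* exon (unadjusted p = 0.00113 in limma). At the highly methylated islands of *Gm42959* and the *Nrg1* intron it was −5.62 and −3.91. *Scnn1b* went from 1.43% and 6.67% to 16.0% and 8.24% in the *Smchd1* matΔ lines. At *Cmpk2* the *Smchd1* matΔ lines went from 0% and 3.33% to 3.70% and 4.76%. Of the *Nrg1* island, these lines held 96.7% and 93.6% at day 2 and 97.6% and 95.3% at day 2.5.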

How the results depend on the processing

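No island passed in limma under any alternative run, between the days in *Smchd1* wt, over 4 lines or in the interaction. The smallest adjusted p in *Smchd1* wt lay between 0.145 (without the day 2 library of line 2) and 1. With no replicate block, in place of the fit paired by line, it was 0.56, with 293 islands at an unadjusted p under 0.05 in limma and 0 calls. With 1 library left out, 294 to 628 islands reached that unadjusted p. In such fits the remaining library of a line carries no information on the day.

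The mean differences in *Smchd1* wt did not keep their sign under every alternative. With the difference of library medians in place of means, they were 0.0209 for all islands, 0.0187 under 10%, −1.11 for 10 to 50% and 1.32 above 50%. The median of the differences of single islands was 0 for all islands and under 10%, 0.0655 for 10 to 50% and −1.17 above 50%. Scaling libraries to the same mean gave −0.000758 for all islands, and above 50% the value was 0.903 with that scaling and 0.139 with class limits of 20 and 60%. Leaving out a line gave −0.0312 to −0.021 over all islands, −0.0532 to −0.000674 under 10%, −1.04 to 1.35 for 10 to 50% and −0.483 to −0.448 above 50%. The difference between genotypes lay between 0.0198 and 0.0513 when a line was left out, and was 0.00255 with scaled libraries. The mean of a gene list changed sign for 1 of the 14 lists with a 5 kb window (Polycomb), 0 with scaled libraries, 3 without line 1 and 5 without line 2. The median of the naive list was 0 without line 1. The cause of these changes was not tested. Classing islands by the *Smchd1* matΔ libraries, chosen after seeing the data, in place of all 8 libraries took the share with a difference of at least 5 points from 0.257% to 0.671% under 1% and from 81.2% to 74.6% for 10 to 50%. Depth per island is unknown and limits every single-island value.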
